A study of Mus musculus with 22 samples.

Results

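The 38 genes described here encode the mouse Wnt ligands, their receptors and the R-spondins. They were chosen by symbol, as every row of the deposited tables that begins with Wnt, Fzd or Rspo and a digit, together with Lrp5, Lrp6, Ror1, Ror2 and Ryk. The rule itself uses no measured value. All 38 were found both among the 19781 genes of the ESC tables and among the 19057 genes of the iPSC table. They comprise 19 Wnt ligands, 10 Frizzled receptors, the 2 co-receptors Lrp5 and Lrp6, 3 receptors of the Ror and Ryk kind and 4 R-spondins.

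Wnt proteins are secreted, lipid-modified ligands that bind Frizzled receptors on nearby cells. With Lrp5 or Lrp6 as co-receptor the signal stabilises β-catenin, which acts with Tcf/Lef factors on transcription, whereas Ror1, Ror2 and Ryk take part in β-catenin-independent signalling. R-spondins bind the receptors Lgr4, Lgr5 and Lgr6 and spare Frizzled proteins from removal by the ubiquitin ligases Znrf3 and Rnf43. In bone the pathway drives osteoblast formation, and loss of LRP5 in people leads to low bone mass. In mouse pluripotent cells it helps to hold back differentiation.

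RNA was sequenced from mouse cells that all carry Col2.3GFP, a collagen-promoter reporter that turns osteoblast-lineage cells green. The groups used were undifferentiated embryonic stem cells (ESC, passages 20 to 30, day 0, 3 samples), osteoblast cultures made from them over 35 to 40 days (ESC-OB, 3 samples), the GFP-positive fraction of such cultures, taken by cell sorting (sorted ESC-OB GFP+, 35 to 40 days, 3 samples), induced pluripotent stem cells (iPSC, passages 10 to 20, day 0, 2 samples) and osteoblast cultures made from those over 35 to 40 days (iPSC-OB, 2 samples). Each source is a cell line in the labels, 1 of ESC and 1 of iPSC. Stem cells were grown on mouse embryonic fibroblast feeders or feeder-free and serum-free, and the sources used here give neither which samples had which nor the library kit of each sample. For 6 days they formed embryoid bodies in medium lacking LIF, the MEK inhibitor PD0325901 and CHIR99021, an inhibitor of GSK3 that itself activates the β-catenin branch, and 0.1 µM retinoic acid was present from day 3 to day 5. Osteogenic medium followed. The labels do not say that replicates were separate cultures, so p-values speak only for the spread among the samples at hand, which may be technical. Calvarial osteoblasts and sorted bone cells were not analysed here. All 7 pluripotency markers fell in each comparison. Of 8 osteoblast markers, 5 rose and 1 fell in ESC-OB, 7 rose and 1 fell in sorted cells, and 6 rose and 1 fell in iPSC-OB. The gene that fell in each was Alpl, the alkaline phosphatase that stem cells also express, and those not called were Sp7 and Dmp1 in ESC-OB and Sp7 in iPSC-OB. Markers of other cell types were present in the cultures. Summed over the list, estimated levels of 6 fibroblast markers were 100.1 normalised counts in ESC, 39444 in ESC-OB and 55718 in sorted cells, those of 8 epithelial markers 6615, 29109 and 54651, and those of 6 cardiac markers 158, 24782 and 4869. In the iPSC fit, which was normalised separately, the fibroblast sum was 1662 in iPSC and 18346 in iPSC-OB. The part these cells had in the results below was not tested, and in bulk RNA fewer cells of a type and less RNA per cell cannot be told apart.

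Fold changes, standard errors (after each ± sign) and adjusted p-values of single genes are the authors', on a log2 scale with positive values higher in the differentiated cells. A gene was called where the adjusted p was under 0.05. Both ESC comparisons come from 1 fit of 9 libraries and share the ESC libraries. Levels are normalised counts, that is reads divided by a size factor of the library. For the ESC groups they are estimates from the deposited base means and fold changes, whose shrinkage towards 0 understates the changes of genes with few reads. Depth in M reads (10 to the power 6), as estimated from the size factors and the summed base means, ran from 4.49 to 19.5 in ESC, 6.72 to 11.5 in ESC-OB, 22.4 to 30.1 in sorted cells, 10.4 to 13.03 in iPSC and 10.1 to 17.7 in iPSC-OB. A level of 3 reads over the whole group, taken as the floor, was 1.22 normalised counts in ESC, 1.28 in ESC-OB, 0.459 in sorted cells, 1.05 in iPSC and 1.32 in iPSC-OB, and covers counting error only.

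ESC-OB against ESC asks how the ligands and receptors change on differentiation of the whole culture. Of the 38 genes, 36 had an adjusted p, and of these 27 rose, 3 fell and 6 were not called; over all genes tested 38.6% rose and 31% fell. Their median log2 change was 2.10, against 0.26 over all genes tested. By role, 13 of 17 Wnt ligands with an adjusted p rose and 0 fell, 7 of 10 Frizzled receptors rose and 2 fell, both co-receptors rose, Ror1 and Ryk rose while Ror2 fell, and 3 of 4 R-spondins rose. In the sorted GFP+ cells against the same ESC, 22 of the 38 rose, 3 fell and 13 were not called, where 39.1% of all genes rose and 32.4% fell. Their median was 2.31 against 0.28. There the ligands stood at 11 rises and 0 falls of 19, the Frizzled receptors at 7 and 2 of 10, and the R-spondins at 3 and 0 of 4. Genes with a base mean of at least 10 had a median of 0.19 in the first comparison and 0.21 in the second, and re-centring on it ended the rise of Ryk in ESC-OB and of Fzd7 in sorted cells.

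**Figure D1:**
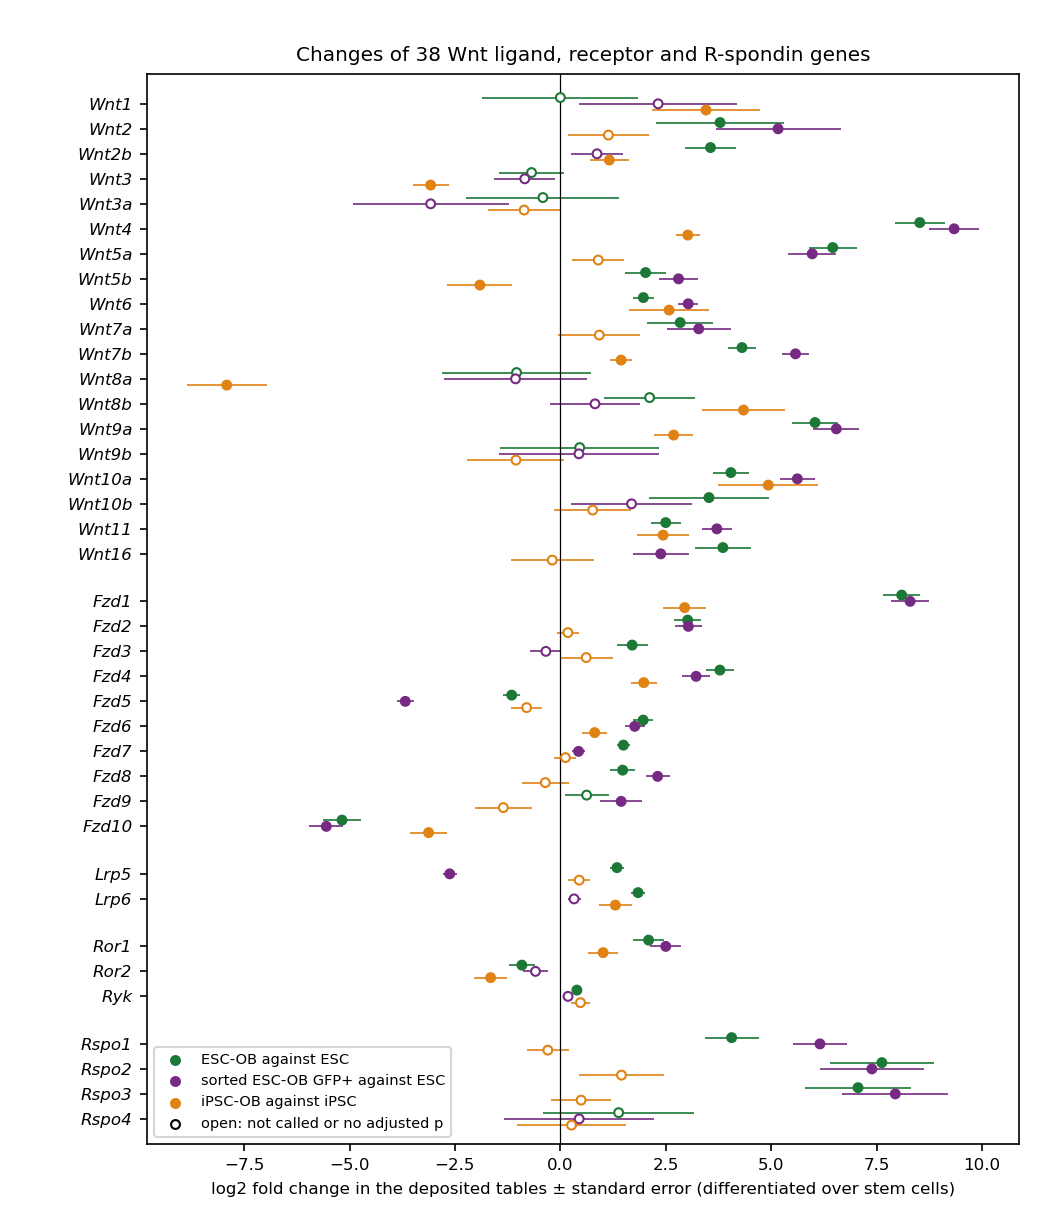
Log2 fold changes of the 38 genes (x axis, authors' deposited tables) with standard errors as bars, for ESC-OB against ESC (green), sorted GFP+ against ESC (purple) and iPSC-OB against iPSC (orange), grouped by role. Filled points passed an adjusted p of 0.05, open points did not or had none. Wnt4 at 8.52 and 9.34 stands farthest right and Wnt8a in the iPSC comparison at -7.91 farthest left.

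Wnt4, a ligand required in kidney and ovary development, changed most among the ligands. Its estimated level was 2.97 normalised counts in ESC, 1095 in ESC-OB and 1925 in sorted cells, and it rose by 8.52 ± 0.59 and 9.34 ± 0.59 in the authors' deposited tables (adjusted p = 2.22e-46 and 1.03e-55). Among the receptors Fzd10 fell in both, from an estimated 471 normalised counts in ESC to 10.04 in sorted cells, with log2 changes of -5.18 ± 0.44 and -5.55 ± 0.40 in the authors' deposited tables (adjusted p = 1.77e-30 and 1.31e-42). The stretches of 250 bases before their transcription starts are printed here as the promoters of a strong rise and a strong fall, beside those of Wnt11 and Wnt5b, the members with a match to the letters CTTTGAT, a core that Tcf/Lef factors bind. Sequences are RefSeq's on GRCm38.p6, read 5′ to 3′ along the gene's own strand, and the match is in capitals.
Wnt4, chr4:137277385-137277634, plus strand: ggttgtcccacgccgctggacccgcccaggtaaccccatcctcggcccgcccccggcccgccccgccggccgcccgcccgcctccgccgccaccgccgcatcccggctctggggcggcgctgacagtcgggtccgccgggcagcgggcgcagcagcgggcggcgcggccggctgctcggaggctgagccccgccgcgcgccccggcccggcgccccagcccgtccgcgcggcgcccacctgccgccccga
Fzd10, chr5:128600856-128601105, plus strand: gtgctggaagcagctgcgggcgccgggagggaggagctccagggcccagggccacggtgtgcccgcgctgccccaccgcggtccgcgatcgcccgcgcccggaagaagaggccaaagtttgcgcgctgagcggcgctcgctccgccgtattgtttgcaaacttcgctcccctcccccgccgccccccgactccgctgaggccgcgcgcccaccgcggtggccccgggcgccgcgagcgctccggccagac
Wnt11, chr7:98834862-98835111, plus strand: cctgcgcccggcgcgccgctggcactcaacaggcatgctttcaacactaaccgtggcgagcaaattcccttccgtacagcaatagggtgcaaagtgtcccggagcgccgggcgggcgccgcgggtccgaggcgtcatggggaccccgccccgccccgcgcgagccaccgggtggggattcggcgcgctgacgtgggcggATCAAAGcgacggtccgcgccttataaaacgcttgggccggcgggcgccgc
Wnt5b, chr6:119449387-119449636, minus strand: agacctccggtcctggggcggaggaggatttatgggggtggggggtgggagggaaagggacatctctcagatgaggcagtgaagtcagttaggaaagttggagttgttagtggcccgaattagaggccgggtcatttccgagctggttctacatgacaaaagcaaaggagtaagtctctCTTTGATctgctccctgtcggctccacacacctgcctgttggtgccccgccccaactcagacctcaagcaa

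RefSeq's table held 29 windows for 26 of the 38 members, each of 300 bases from 250 before to 50 after a start. Searched on both strands, CTTTGAT was in 2 of the 29, and the related CTTTGAA, which does not overlap it, was in 0. Of 32851 windows of all genes, 3.73% held the first and 5.14% the second. In Wnt11 the match, which reads ATCAAAG on the gene's strand, begins at position -51 from the start, and in Wnt5b at position -71 in the start nearest its 3′ end among the 3 listed. The Wnt4 and Fzd10 windows had 84.3% and 77.7% G and C bases. CpG pairs were denser than in most promoters, with a median observed-to-expected ratio of 0.818 over member windows and 0.384 over all windows. A match or its lack says nothing here about binding.

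Other ligands with large rises in both ESC comparisons were Wnt5a, Wnt9a, Wnt7b and Wnt10a. Wnt5a, the best studied β-catenin-independent ligand, went from an estimated 4.42 normalised counts in ESC to 390 in ESC-OB and 278 in sorted cells, with log2 changes of 6.46 ± 0.58 and 5.97 ± 0.57 in the authors' deposited tables (adjusted p = 2.48e-28 and 1.37e-24). Wnt9a, which acts in joint formation, went from 3.41 to 224 and 318, by 6.04 ± 0.55 and 6.55 ± 0.55 in the authors' deposited tables (adjusted p = 3.11e-27 and 3.50e-32). Wnt7b, a ligand that can promote bone formation, went from 49.6 to 982 and 2367, by 4.31 ± 0.33 and 5.58 ± 0.33 in the authors' deposited tables (adjusted p = 1.52e-38 and 1.98e-64). Each of these had its ESC level above the floor. Wnt10a, a ligand of skin appendages and teeth, and its chromosomal neighbour Wnt6 rose together: Wnt10a by 4.04 ± 0.43 and 5.62 ± 0.42, and Wnt6 by 1.97 ± 0.24 and 3.03 ± 0.23 in the authors' deposited tables (adjusted p = 1.27e-20 and 5.94e-40 for Wnt10a, 1.47e-15 and 1.04e-37 for Wnt6). Their estimated levels ran from 8.82 to 145 and 434 for Wnt10a, and from 50.6 to 198 and 414 for Wnt6.

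Wnt11, which guides cell movements in the early embryo, rose by 2.50 ± 0.36 in ESC-OB and 3.71 ± 0.35 in sorted cells, and Wnt5b, a ligand of cartilage, by 2.02 ± 0.48 and 2.80 ± 0.47 in the authors' deposited tables (adjusted p = 7.96e-12, 1.45e-25, 4.91e-05 and 5.32e-09). Wnt16, whose loss thins cortical bone, rose by 3.85 ± 0.66 and 2.38 ± 0.66 from 4.09 normalised counts in ESC (adjusted p = 1.51e-08 and 5.54e-04 in the authors' deposited tables). Wnt7a, a signal of the limb's dorsal side, rose by 2.84 ± 0.78 and 3.28 ± 0.76 from 2.33 normalised counts (adjusted p = 5.27e-04 and 3.07e-05 in the authors' deposited tables). Wnt2b, a ligand of lung and other foregut organs, was called only in the whole culture, at 3.56 ± 0.60 against 0.87 ± 0.62 in sorted cells (adjusted p = 1.07e-08 and 0.196 in the authors' deposited tables). Its estimated levels were 6.45 in ESC, 76.1 in ESC-OB and 11.8 in sorted cells.

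For the 9 members with a base mean under 10 in the ESC fit, the reads of each library could be worked out. Wnt2, a ligand of developing lung and vessels, had 0 reads in each ESC library, 5, 4 and 1 in the ESC-OB libraries and 13, 23 and 32 in the sorted libraries. Its groups therefore did not overlap with ESC. The mean level of Wnt2 was 3.24 times the ESC floor in ESC-OB and 9.01 times that floor in sorted cells. Its pooled ratios over ESC had 95% exact lower limits of 2.35 and 6.75, for counting error only. Wnt10b, a ligand that favours osteoblasts over fat cells, had 1, 0 and 0 reads in ESC, 8, 7 and 3 in ESC-OB and 10, 3 and 0 in sorted cells. From a single ESC read, the pooled ratio of ESC-OB over ESC was 18.9 with a 95% exact interval from 2.98 to 786. Both were called higher in ESC-OB, at 3.79 ± 1.51 for Wnt2 and 3.53 ± 1.43 for Wnt10b in the authors' deposited table (adjusted p-values 0.0190 and 0.0210), and in sorted cells Wnt2 was called and Wnt10b was not (adjusted p = 8.65e-04 and 0.286).

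Ligands of the early embryo and of the neural tube had few reads in the ESC fit. Wnt1, a midbrain organiser signal, had 0 reads in ESC, 0 in ESC-OB and 10 in sorted cells, and Wnt9b, which acts in the kidney, had 1, 1 and 3. Wnt3a and Wnt8a, both active in the primitive streak, had 3, 2 and 0 and 3, 1 and 3 reads over the 3 groups. Wnt3, needed for gastrulation, had 18, 7 and 4 reads in the ESC libraries, 8, 7 and 3 in ESC-OB and 18, 4 and 21 in sorted cells, and as normalised counts each ESC-OB library (5.32 to 8.56) lay below each ESC library (10.6 to 15.6), while the sorted libraries overlapped with ESC. Wnt8b, a forebrain ligand, had 5, 0 and 1 reads in ESC against 10, 9 and 6 in ESC-OB and 2, 20 and 4 in sorted cells, a pooled ratio of ESC-OB over ESC of 4.37 with a 95% exact interval from 1.75 to 13.02 for counting error only. None of these 6 was called in either ESC comparison, and Wnt1 and Wnt9b had no adjusted p in ESC-OB against ESC.

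Of the Frizzled receptors, which carry the ligand-binding domain, Fzd1 rose from an estimated 5.75 normalised counts in ESC to 1571 in ESC-OB and 1805 in sorted cells. Its log2 changes were 8.10 ± 0.44 and 8.30 ± 0.44 in the authors' deposited tables (adjusted p = 9.90e-73 and 1.03e-76). Fzd4, which is also the receptor of Norrin in retinal vessels, rose by 3.78 ± 0.33 and 3.22 ± 0.33, and Fzd2 by 3.02 ± 0.31 and 3.04 ± 0.31 in the authors' deposited tables (adjusted p = 7.28e-29, 9.79e-22, 4.47e-21 and 1.30e-21). Fzd6, a receptor of hair and skin polarity, rose by 1.963 ± 0.24 and 1.76 ± 0.23, and Fzd8 by 1.48 ± 0.29 and 2.31 ± 0.28 in the authors' deposited tables (adjusted p = 7.69e-16, 1.87e-13, 1.21e-06 and 1.98e-15). These 5 receptors stood higher in both cell preparations. Fzd9, whose loss lowers bone formation in mice, was called in sorted cells at 1.44 ± 0.51 but stood at 0.62 ± 0.52 in ESC-OB in the authors' deposited tables (adjusted p = 0.00683 and 0.283).

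Fzd3, Fzd5 and Fzd7 took different courses in the whole culture and in the sorted cells. Fzd7, a receptor of pluripotent cells, had an estimated 495 normalised counts in ESC, 1395 in ESC-OB and 667 in sorted cells, with log2 changes of 1.496 ± 0.16 and 0.43 ± 0.16 in the authors' deposited tables (adjusted p = 2.06e-20 and 0.00979). Fzd3, a receptor of axon guidance, had 131, 428 and 104, with a rise of 1.70 ± 0.37 in ESC-OB and -0.34 ± 0.37 in sorted cells in the authors' deposited tables (adjusted p = 8.27e-06 and 0.404). Fzd5, a receptor with roles in yolk sac and eye, fell from 964 to 433 and to 75.3, with changes of -1.15 ± 0.20 and -3.68 ± 0.21 in the authors' deposited tables (adjusted p = 3.20e-08 and 5.55e-69).

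The co-receptors behaved differently in the sorted cells from the whole culture. Lrp5, the co-receptor tied to bone mass, had an estimated 746 normalised counts in ESC, 1891 in ESC-OB and 121 in sorted cells. It rose by 1.34 ± 0.16 in ESC-OB and fell by 2.62 ± 0.17 in sorted cells in the authors' deposited tables (adjusted p = 8.66e-16 and 9.18e-53). Lrp6, its close relative, had 1199, 4299 and 1502 normalised counts, at 1.84 ± 0.16 and 0.33 ± 0.16 in the authors' deposited tables (adjusted p = 2.14e-31 and 0.0511). Limited to genes with a base mean of at least 10, the second passed the threshold. Re-centred on the median of those genes, 0.21, it did not.

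Among receptors of β-catenin-independent signalling, Ror1 rose by 2.09 ± 0.37 and 2.50 ± 0.36 in the authors' deposited tables, from 64.3 normalised counts in ESC to 274 and 364 (adjusted p = 3.51e-08 and 2.10e-11). Ror2, a Wnt5a receptor needed for skeletal growth, fell by 0.91 ± 0.30 in ESC-OB and stood at -0.59 ± 0.30 in sorted cells in the authors' deposited tables (adjusted p = 0.00442 and 0.0663). Re-centring on genes with a base mean of at least 10 brought the latter past the threshold. Ryk, a Wnt receptor without kinase activity, stood at 0.39 ± 0.11 and 0.18 ± 0.11 in the authors' deposited tables, and only the first was called (adjusted p = 7.87e-04 and 0.125).

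Of the R-spondins, Rspo2, Rspo3 and Rspo4 were under the floor in ESC, and Rspo1 was above it. Rspo2, needed for limb growth, and Rspo3, needed for vessels of the placenta, had estimated ESC levels of 0.454 and 0.492 normalised counts, both under the floor of 1.22. The estimated levels of Rspo2 were 89.6 in ESC-OB and 76.0 in sorted cells, and those of Rspo3 65.6 and 121. All of these are fitted values, since reads could not be worked out for them, and no fold is given. Rspo1, which acts in ovary determination, went from 4.69 normalised counts in ESC to 78.4 in ESC-OB and 335 in sorted cells. All 3 were called in both comparisons in the authors' deposited tables, with adjusted p from 7.56e-10 (Rspo1) and 2.11e-09 (Rspo2) to 5.88e-08 (Rspo3) in ESC-OB. Rspo4, a gene of nail formation, had 1, 3 and 4 reads over the 3 groups and was not called.

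Whether the sorted cells differ from the whole culture was tested as the difference of the deposited log2 changes. Its standard error was the square root of the summed squares of both standard errors, as if the changes were independent. Both changes share the ESC libraries, and with a correlation of 0.5 between them Rspo1, Wnt11 and Fzd8 were called higher as well. Of the 38 genes 3 were higher and 6 lower in sorted cells and 29 were not called, where 10.7% of all genes were higher and 12.1% lower. The largest difference was that of Lrp5, at -3.97 ± 0.24 (95% interval -4.43 to -3.51, adjusted p = 1.49e-60). Lrp6 differed by -1.52 ± 0.22, Fzd5 by -2.52 ± 0.29, Fzd3 by -2.05 ± 0.52, Fzd7 by -1.06 ± 0.22 and Wnt2b by -2.69 ± 0.86. The ligands Wnt10a, Wnt7b and Wnt6 were higher in sorted cells, by 1.58 ± 0.60, 1.27 ± 0.46 and 1.06 ± 0.34 (adjusted p = 0.0387, 0.0292 and 0.00921). For Rspo1 the difference was 2.09 ± 0.90 with an interval from 0.33 to 3.86, and for Wnt11 1.21 ± 0.50 with an interval from 0.24 to 2.19, neither past the threshold (adjusted p = 0.0800 and 0.0626). Beside these differences, the summed epithelial and fibroblast markers were higher and the summed cardiac markers lower in the sorted cells, as given above. Estimated levels of 8 osteoblast markers summed to 56743 in ESC-OB and 117302 in sorted cells. Those of 6 endothelial markers summed to 2461 and 862, those of 7 neural markers to 1071 and 519, and those of 5 macrophage markers to 1049 and 1107. Cell sorting and the greater depth cannot be told apart from the GFP-positive state, and the library kit of each sample is not given.

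**Figure D2:**
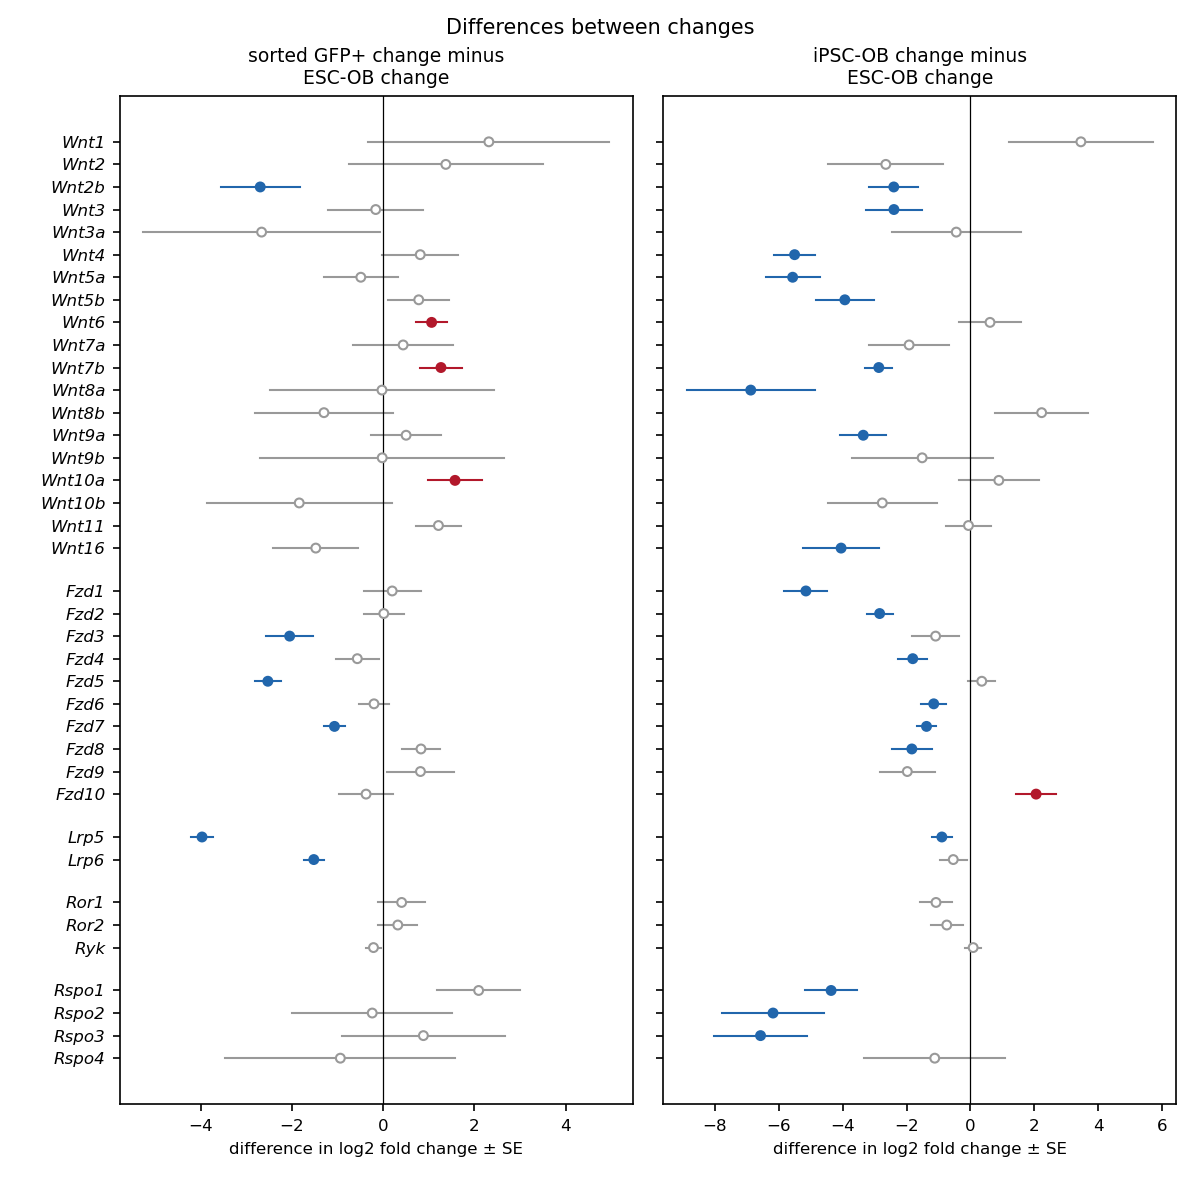
Difference between 2 log2 changes for each of the 38 genes, with its standard error as a bar: sorted GFP+ minus ESC-OB on the left, iPSC-OB minus ESC-OB on the right. Red points were called higher, blue points lower and open grey points were not called. On the left Lrp5 at -3.97 lies farthest from 0, and on the right 19 of the 20 called genes lie below 0.

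The iPSC comparison asks the same question of the second cell source, and its table could be read library by library for 30 of the 38 members. Its base means are those of 5 libraries, 3 on the iPSC side and 2 on the iPSC-OB side, whereas the labels used here list 2 iPSC samples, and none could be matched to a labelled sample. Sides were those that give back the authors' fold changes. As deposited, 14 of the 38 genes rose, 5 fell and 19 were not called, where 26.1% of all genes rose and 23.1% fell. Their median change was 0.69 against 0.15 over all genes. By role, 9 of 19 ligands rose and 3 fell, 3 of 10 Frizzled receptors rose and 1 fell, Lrp6 and Ror1 rose, Ror2 fell, and 0 of 4 R-spondins were called (0 also at an unadjusted p under 0.05). Of the 30 genes with reads, 14 were higher in both iPSC-OB libraries than in all 3 iPSC libraries, 6 were lower in both and 10 overlapped. Over all genes with reads these shares were 35.6% higher and 23% lower.

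**Figure D3:**
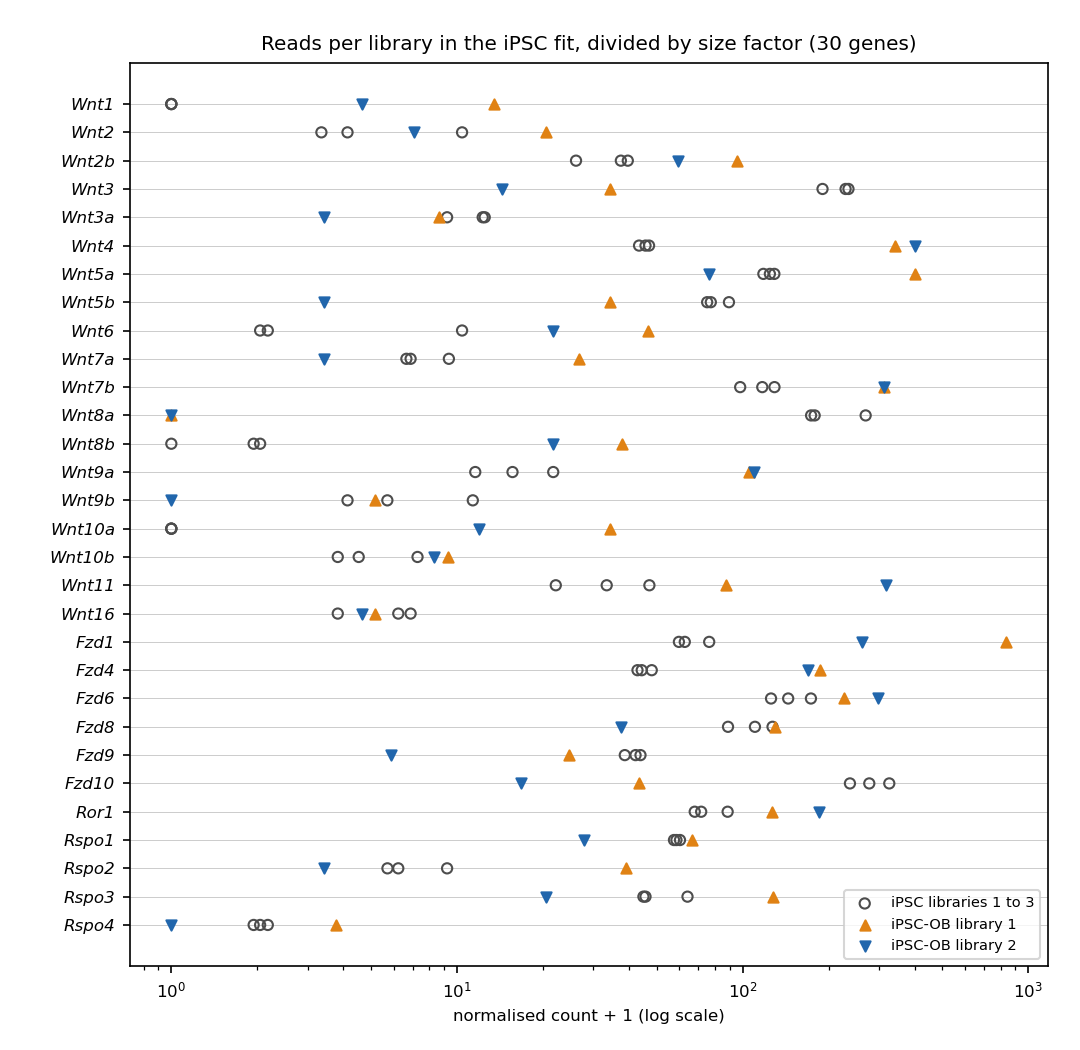
Normalised counts plus 1 (log scale) of the 30 genes with reads per library in the iPSC fit. Open circles are the 3 iPSC libraries, orange triangles pointing up are iPSC-OB library 1 and blue triangles pointing down iPSC-OB library 2. Wnt8a lies at 0 reads in both iPSC-OB libraries, and Wnt5a, Rspo2 and Rspo3 show the 2 iPSC-OB libraries on opposite sides of the iPSC libraries.

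Several ligands rose by a like amount in both iPSC-OB libraries. Wnt4 had 42.4, 46.0 and 44.7 normalised counts in the iPSC libraries and 341 and 400 in the iPSC-OB libraries. Both differentiated libraries were far above all 3 undifferentiated ones, and the change was 3.02 ± 0.28 in the authors' deposited table (adjusted p = 1.02e-24). Wnt9a had 20.7, 14.6 and 10.6 against 104 and 108, with a change of 2.69 ± 0.46 in the authors' deposited table (adjusted p-value 4.52e-08). Wnt7b had 96.98, 116 and 128 against 311 and 311, with a change of 1.44 ± 0.26 in the authors' deposited table (adjusted p-value 2.84e-07). For these 3 ligands the spread between the iPSC-OB libraries was small beside the change. Wnt11 also rose, by 2.44 ± 0.62 (adjusted p = 3.07e-04, both from the authors' deposited table), but from 46.1, 32.4 and 21.2 to 86.7 in library 1 and 317 in library 2. limma on the reads of all 5 libraries gave Wnt11 2.35 with an adjusted p of 0.0240; without iPSC-OB library 2 this was 1.42 (adjusted p = 0.102), and without any 1 of the iPSC libraries 2.07 to 2.62 (adjusted p from 0.0575 to 0.0875).

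Some ligands were at or near 0 reads in iPSC. Wnt10a had 0 reads in all 3 iPSC libraries and 48 and 9 reads in the iPSC-OB libraries, a mean level 21.1 times the iPSC floor. Wnt1 had 0 in all 3 and 18 and 3, a mean level 7.71 times that floor. The pooled ratios of iPSC-OB over iPSC had 95% exact lower limits of 18.9 for Wnt10a and 6.59 for Wnt1, for counting error only. Wnt8b had 1, 1 and 0 reads against 53 and 17, a pooled ratio of 44.3 with a 95% exact interval from 11.8 to 373. Each was called higher in the authors' deposited table (adjusted p-values 1.20e-04, 0.0160 and 4.08e-05). By limma Wnt1 missed the threshold without any 1 of the iPSC libraries (adjusted p from 0.0559 to 0.0574). Wnt6, the neighbour of Wnt10a, had 9.42, 1.05 and 1.18 normalised counts against 45.8 and 20.6, and Wnt2b 38.6, 25.1 and 36.5 against 94.3 and 58.3. Both rose, by 2.58 ± 0.95 and 1.16 ± 0.46 in the authors' deposited table (adjusted p-values 0.0163 and 0.0272), and limma on the reads put Wnt2b just short of the threshold (1.15, adjusted p = 0.0558). Wnt6 missed it without either iPSC-OB library (adjusted p = 0.174 and 0.0895), without iPSC library 2 (adjusted p = 0.104) and without iPSC library 3 (adjusted p = 0.101).

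Wnt8a and Wnt3, ligands of the early embryo, fell. Wnt8a had 285, 165 and 151 reads in the iPSC libraries, or 268, 173 and 178 normalised counts, and 0 reads in both iPSC-OB libraries. Against the iPSC-OB floor the iPSC mean was at least 156-fold higher, and the change was -7.91 ± 0.95 in the authors' deposited table (adjusted p = 1.54e-15). In the ESC fit the same gene had 2, 1 and 0 reads in the 3 ESC libraries, so it was abundant in iPSC but near the floor in ESC. Wnt3 had 234, 189 and 228 normalised counts in iPSC against 33.3 and 13.4 in iPSC-OB, a change of -3.08 ± 0.43 in the authors' deposited table (adjusted p-value 5.95e-12). In ESC it had 10.99, 15.6 and 10.6. The ESC and iPSC levels come from separate normalisations and carry no test. Wnt3a had 11.3, 11.5 and 8.23 against 7.63 and 2.43 and stood at -0.86 ± 0.86 in the authors' deposited table (adjusted p = 0.423).

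Wnt5b was the ligand with opposite calls in the 2 cell sources. It had 88.5, 76.3 and 74.1 normalised counts in iPSC against 33.3 and 2.43 in iPSC-OB, a fall of 1.91 ± 0.77 in the authors' deposited table (adjusted p-value 0.0290). The iPSC-OB libraries differed 13.7-fold from each other, and limma on the reads gave -2.89 with an adjusted p of 0.0440. Without any 1 of the iPSC libraries that p was between 0.122 and 0.137. Its difference from the ESC-OB change was -3.93 ± 0.91 (adjusted p = 1.39e-04).

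The 2 iPSC-OB libraries lay on opposite sides of the iPSC libraries for 7 members, in each case with library 1 above and library 2 below. Over all genes with reads, 9.25% were split in either order. Wnt5a had 128, 117 and 123 normalised counts in iPSC against 399 in library 1 and 75.3 in library 2. Rspo3 had 63.1, 43.9 and 44.7 against 126 and 19.4, and Rspo2 had 4.71, 5.23 and 8.23 against 38.1 and 2.43. Wnt7a had 5.65, 8.37 and 5.88 against 25.7 and 2.43. The others were Rspo1 at 65.2 and 26.7, Fzd8 at 128 and 36.4 and Rspo4 at 4 and 0 reads in libraries 1 and 2. None of the 7 was called in the authors' deposited table, where Wnt5a stood at 0.90 ± 0.61 and Rspo3 at 0.49 ± 0.71 (adjusted p = 0.223 and 0.594). Without library 1, limma put Wnt5a at -0.70 and Rspo3 at -1.32 (adjusted p = 0.0118 and 0.0378), and without library 2 at 1.69 and 1.32 (adjusted p = 0.00311 and 0.0352), so 1 library decides their direction. Leaving out an iPSC-OB library leaves 1, assumed to vary like the others. Among called members with reads, Fzd1, Fzd4, Fzd10, Wnt3, Wnt4, Wnt7b, Wnt8a, Wnt8b, Wnt9a and Wnt10a passed the limma test without any 1 of the 5 libraries.

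The same 2 libraries differed in markers. For the osteoblast genes Dmp1, Sp7 and Bglap, library 1 had 70.0, 13.9 and 28.4 normalised counts, and library 2 had 0, 0 and 1.21. In the iPSC libraries these genes had 1.05 to 1.88, 5.23 to 10.6 and 0 to 1.18. Runx2, the other osteoblast marker with reads, had 214 and 162, both above the 25.1 to 40.5 of the iPSC libraries. Library 1 was also higher in the epithelial keratin Krt14, at 1164 against 77.7, and in the summed level of 3 neural markers, at 400.2 against 24.3. No other epithelial marker of the list had reads per library. The neural sums of the iPSC libraries were 62.3 to 92.3. The sums of 4 endothelial markers were 364 and 146, both below the 437 to 476 of the iPSC libraries. Their genes went different ways. Pecam1 had 99.9 and 25.5 against 396 to 421 in iPSC, and Kdr 193 and 113 against 30.3 to 60.3. Emcn had 14.6 and 2.43 against 1.88 to 2.35, and Tie1 56.2 and 4.86 against 5.65 to 9.41. The sums of 3 cardiac markers were 364 and 198, above the 54.1 to 74.2 of the iPSC libraries. The 5 macrophage markers summed to 1241 and 1155 but went both ways. Lyz2 had 463 and 159, Ptprc 33.3 and 15.8 and Emr1 40.2 and 25.5, whereas Cd68 had 262 and 531 and Csf1r 442 and 424. The part of these cell types in the member values was not tested.

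Among receptors, Fzd1 had 75.3, 61.7 and 58.8 normalised counts in iPSC against 833 and 261 in iPSC-OB, and rose by 2.95 ± 0.51 (adjusted p = 3.96e-08, both from the authors' deposited table). Fzd4 had 43.3, 41.8 and 47.0 against 186 and 168, a rise of 1.98 ± 0.31 in the authors' deposited table (adjusted p-value 2.09e-09). Fzd10 had 325, 236 and 276 against 42.3 and 15.8, a fall of 3.13 ± 0.44 in the authors' deposited table (adjusted p-value 1.82e-11). In all 3 the groups did not overlap, while the ratio of iPSC-OB library 1 over library 2 was 3.19 for Fzd1, 2.68 for Fzd10 and 1.11 for Fzd4. Fzd6 had 172, 143 and 125 against 225 and 298, and Ror1 87.6, 66.9 and 70.6 against 126 and 183. They rose by 0.81 ± 0.30 and 1.01 ± 0.35 in the authors' deposited table (adjusted p-values 0.0163 and 0.00999). By limma both missed the threshold without iPSC-OB library 2 (adjusted p = 0.0993 and 0.0562) and without any 1 of the iPSC libraries (adjusted p from 0.0537 to 0.116). Lrp6 rose by 1.304 ± 0.40 and Ror2 stood lower at -1.65 ± 0.39 in the authors' deposited table (adjusted p-values 0.00299 and 1.05e-04, both called), and their base means were too high for reads to be worked out.

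The remaining members were not called in iPSC-OB. Fzd9 had 37.7, 42.9 and 41.2 normalised counts in iPSC against 23.6 and 4.86, without overlap, at -1.35 ± 0.68 in the authors' deposited table (adjusted p = 0.0857). Fzd5 stood at -0.80 ± 0.37 (adjusted p = 0.0580), Lrp5 at 0.45 ± 0.26 (adjusted p = 0.136) and Ryk at 0.48 ± 0.23 (adjusted p = 0.0778) in the authors' deposited table. Fzd2, Fzd3 and Fzd7 stood at 0.18 ± 0.25, 0.61 ± 0.63 and 0.12 ± 0.26 in the authors' deposited table, with base means of 456, 449 and 1783. Wnt2, Wnt9b, Wnt10b and Wnt16 had 15, 18, 12 and 13 reads over the iPSC libraries and 33, 6, 18 and 9 over the iPSC-OB libraries, too few for any but a large change to be detectable.

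The test of the difference between both sources' changes showed 1 member higher and 19 lower in the iPSC source, with 18 not called, where 11% of all genes were higher and 17.2% lower. The median difference was -1.82 over the members and -0.07 over all genes tested. By role 9 of 19 ligands, 6 of 10 Frizzled receptors, 3 of 4 R-spondins and 1 of 2 co-receptors were lower, and Fzd10 was higher, its fall being smaller in iPSC-OB. The lower genes include Wnt5a, Fzd8, Rspo1, Rspo2 and Rspo3, whose iPSC-OB libraries lay on opposite sides of the iPSC libraries. Levels of 5 of these genes are given side by side. Wnt4 had an estimated 2.97 normalised counts in ESC and 45.4 in iPSC, Fzd1 5.75 and 70.0, Wnt5a 4.42 and 125, Rspo3 0.492 and 51.2, and Rspo1 4.69 and 57.3. The ESC level of Rspo3 was under the floor. On the differentiated side Wnt4 had 1095 in ESC-OB and 369 in iPSC-OB, Fzd1 1571 and 540, Wnt5a 390 and 234, Rspo3 65.6 and 71.9, and Rspo1 78.4 and 46.6. On separately normalised scales and with no test, the estimated stem cell levels were farther apart than those of the cultures for 17 of the 20 genes, these 5 among them. The 20 genes were picked by a test built from the same fold changes. No share over all genes was worked out, so the count is a description only. The exceptions were Fzd10, Wnt16 and Wnt7b. Wnt16 had 4.09 and 4.58 in the stem cells and 59.2 and 4.004 in the cultures. Beside them, the 6 fibroblast markers summed to 100.1 normalised counts in ESC and 1662 in iPSC, and their part in these values was not tested.

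Other genes of the pathway were read from lists. Of 18 genes for Wnt secretion and R-spondin reception, 12 rose and 1 fell in ESC-OB, 10 and 2 in sorted cells and 8 and 2 of 17 with an adjusted p in iPSC-OB. Over all genes tested, 38.6% rose and 31% fell in ESC-OB, 39.1% and 32.4% in sorted cells and 26.1% and 23.1% in iPSC-OB, shares against which the counts of this and the other lists stand as descriptions. Wls, the carrier that brings Wnt proteins to the cell surface, rose by 3.80 ± 0.21, 4.20 ± 0.21 and 1.47 ± 0.26 in the authors' deposited tables for these comparisons. Lgr5, an R-spondin receptor, was called higher in both ESC comparisons and stood at 1.57 ± 0.78 in iPSC-OB in the authors' deposited tables (adjusted p = 2.77e-25, 7.61e-25 and 0.0834). The fitted ESC level of Lgr5 was under the floor, so no fold is given for the ESC comparisons. In the iPSC fit it had 16.9, 12.5 and 20.0 normalised counts in iPSC against 95.01 in library 1 and 14.6 in library 2, again higher in library 1. The ubiquitin ligase Rnf43 rose in all 3, by 3.31 ± 0.60, 4.06 ± 0.59 and 2.11 ± 0.58, and its partner Znrf3 fell in both ESC comparisons, with changes of -0.91 ± 0.19 and -2.20 ± 0.19 in the authors' deposited tables.

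Secreted antagonists were mostly called higher, where 38.6%, 39.1% and 26.1% of all genes rose in the 3 comparisons. Of 10 with an adjusted p in ESC-OB 8 rose and 1 fell, of 11 in sorted cells 8 rose and 0 fell, and of 12 in iPSC-OB 7 rose and 1 fell. Frzb, a decoy receptor of cartilage and bone, was called higher in all 3 comparisons, at 4.69 ± 0.63 in iPSC-OB in the authors' deposited tables. Its fitted ESC level was under the floor, so no fold is given for the ESC comparisons. Dkk1, which blocks Lrp5 and Lrp6, rose by 2.50 ± 0.60, 2.43 ± 0.59 and 2.27 ± 0.41 in the authors' deposited tables. The Dkk3 gene rose by 4.61 ± 0.21, 4.73 ± 0.20 and 2.92 ± 0.25 in the authors' deposited tables. Targets and partners of β-catenin, against shares of 31%, 32.4% and 23.1% of all genes that fell, had 4 rises and 7 falls of 14 with an adjusted p in ESC-OB, 4 and 9 of 14 in sorted cells and 2 and 8 of 15 in iPSC-OB. Axin2, a widely used target and feedback inhibitor, fell in all 3 with changes of -1.098 ± 0.25, -3.07 ± 0.25 and -2.04 ± 0.38, and so did Tcf7, a transcription partner of β-catenin, with -4.20 ± 0.41, -3.49 ± 0.39 and -3.25 ± 0.34 in the authors' deposited tables. Tcf7l2, another such partner, rose by 3.08 ± 0.21, 3.13 ± 0.21 and 2.76 ± 0.39, and Nkd2, a feedback inhibitor, rose by 5.81 ± 0.40 and 6.92 ± 0.40 in the ESC comparisons and stood at -0.13 ± 0.57 in iPSC-OB in the authors' deposited tables.

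Genes that carry the signal inside the cell moved in both directions. Of 21 cytoplasmic components 10 rose and 5 fell in ESC-OB, 8 and 10 in sorted cells and 6 and 2 in iPSC-OB, with medians of 0.26, -0.02 and 0.13. Of 14 planar polarity genes 5 rose and 4 fell, 4 and 8, and 4 and 3. The shares of all genes tested that rose and fell were 38.6% and 31%, 39.1% and 32.4%, and 26.1% and 23.1%. Ctnnb1, which encodes β-catenin itself, stood at -0.0047 ± 0.08 in ESC-OB, fell by 0.66 ± 0.08 in sorted cells and stood at -0.04 ± 0.15 in iPSC-OB in the authors' deposited tables. Daam2, a formin of the polarity branch, rose by 6.64 ± 0.45, 5.14 ± 0.45 and 3.61 ± 0.54, and Vangl2, a core polarity gene, fell in all 3 with changes of -1.67 ± 0.18, -2.21 ± 0.17 and -1.18 ± 0.27 in the authors' deposited tables.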

How the data were processed

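RNA-seq was made from 22 samples in 8 groups, of which 5 groups are used here. Reads were aligned with STAR 2.4.2a, and DESeq2 under R 3.2.2 and the mm9 build are named, per the submitters' processing notes. The 3 tables the authors deposited give, per the file headers, a base mean (signal, reads divided by size factors and averaged over libraries), the log2 fold change and its error, a test score (the stat column) and p-values, raw and adjusted. No column holds 1 sample's values. The direction was read from pluripotency genes, which are negative.

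The 38 members and all gene lists were chosen with earlier results of these data known. Genes are named as every member, plus examples from the lists. Members were called at an adjusted p under 0.05. Differences between deposited changes were tested with a normal test, Benjamini-Hochberg adjusted over all genes. Group levels were estimated from base means and fold changes.

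The base means are printed to 15 digits, so whole reads per library could be worked out. In the iPSC fit 11833 of 12139 genes with a base mean under 300 had a single solution, which took 5 libraries, 3 of them iPSC where 2 had been planned from the labels. In the ESC fit all 1507 genes under 10 had one. With base means shifted by 1e-09, 0 of 300 were solved. Sides were taken from the split that gives back the authors' log2 fold changes (median absolute difference 0.022 against 0.263 for the next split in the iPSC fit, 0.330 against 0.647 in the ESC fit). Reads of the iPSC fit were tested as log2(normalised count + 1) with limma 3.58.1 in R 4.3.3, for 9679 genes with at least 10 reads, 29 of them members. Scripts ran in Python 3.11.15 with numpy 2.4.6, pandas 2.3.3 and scipy 1.17.1, and were tested on simulated data.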

Additional observations from a re-analysis of the deposited data

Results flagged for a closer look

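For 20 of the 38 genes the change on differentiation differed between the iPSC and the ESC source by the test of the difference, each given here as the iPSC-OB change minus the ESC-OB change on the log2 scale. Among ligands the difference was -6.87 ± 2.004 for Wnt8a, -5.56 ± 0.84 for Wnt5a, -5.50 ± 0.65 for Wnt4, -4.05 ± 1.18 for Wnt16, -3.93 ± 0.91 for Wnt5b, -3.35 ± 0.72 for Wnt9a, -2.87 ± 0.42 for Wnt7b, -2.40 ± 0.76 for Wnt2b and -2.39 ± 0.87 for Wnt3. Among Frizzled receptors it was -5.15 ± 0.67 for Fzd1, -2.84 ± 0.40 for Fzd2, -1.83 ± 0.63 for Fzd8, -1.81 ± 0.46 for Fzd4, -1.38 ± 0.30 for Fzd7, -1.15 ± 0.38 for Fzd6 and 2.05 ± 0.63 for Fzd10, the 1 positive value. For the R-spondin Rspo1 it was -4.36 ± 0.81, and for the co-receptor Lrp5 -0.90 ± 0.30. The R-spondins Rspo3 and Rspo2 stood at -6.57 ± 1.45 and -6.18 ± 1.59. Their ESC levels were fitted values under the floor, so the size of these differences was not measured. Wnt8a had 3 reads over the ESC libraries and 1 over the ESC-OB libraries, so no fall of that size could have been seen in the ESC source, and its difference shows no unlike response. The largest adjusted p among the 20 was that of Wnt3, 0.0250. For Wnt5a, Fzd8, Rspo1, Rspo2 and Rspo3 the iPSC-OB libraries lay on opposite sides of the iPSC libraries. The direction of their change in the iPSC source was therefore not settled. Cell line, passage and library kit cannot be told apart from the source.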

How the results depend on the processing

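Counts of called members were within 1.5 times of the values given under each alternative, with these exceptions. The number higher in sorted cells than in the whole culture was 3 as reported, 6 with a correlation of 0.5 between both changes and 1 at a threshold of 0.01. With a floor of 10 reads in place of 3, the members under it were 5 in place of 3 in sorted cells and 4 in place of 1 in iPSC-OB. Of the members limma tested on reads, 12 were higher and 4 lower, against 13 and 4 in the authors' deposited table, and leaving out each library in turn gave 7 to 13 higher (8, 7 and 7 without iPSC library 1, 2 and 3) and 3 to 10 lower. Without iPSC-OB library 1 the direction reversed for Rspo3, at -1.32, and Wnt5a, at -0.70; the cause was not tested. No paired analysis was possible because the deposited tables hold no column of single samples and no library was tied to a replicate number. Leaving out a library of the ESC fit was not possible either, since only genes with a base mean under 10 had reads. Lengths are not given, so levels cannot be compared between genes, and members near the floor could show only large changes.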

Other observations

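Of the members, 4 pairs are neighbours on a chromosome. Wnt6 and Wnt10a on chromosome 1 were both called higher in all 3 deposited comparisons. Of Wnt3a and Wnt9a on chromosome 11, Wnt9a was called higher in all 3 and Wnt3a in none. Wnt3a had 3, 2 and 0 reads in ESC, ESC-OB and sorted cells, and 30 and 13 in iPSC and iPSC-OB. With so few reads, its lack of a call does not show a different course. Wnt9b and Wnt3, also on chromosome 11, and Wnt10b and Wnt1 on chromosome 15 were not called together in any of them. The sources used here do not say how reads shared by neighbours were counted.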
